A study of Mus musculus with 14 samples.

Results

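The Sall1, Sall3 and Sall4 loci of mouse ES cells held 32 of the 24416 peaks in 8 ChIP-seq peak lists. A locus was the mm9 gene body of the GENCODE vM1 annotation with 100 kb on each side, and a peak belonged to it when any of it lay inside. The 3 genes are members of the Sall family among 22350 protein-coding gene entries, and Sall2, the remaining paralog, was used for comparison. They were chosen by name and not by a cut on a measured value, but with earlier results of these data known. Of the 32 peaks, 19 lay at Sall1, 7 at Sall3 and 6 at Sall4, against 1 at Sall2.

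The study asked where SIM2, a basic helix-loop-helix transcription factor encoded on human chromosome 21, binds in ES cells, and which factors share its sites. The clones A6, B8 and C4 derive from the EB3 mouse ES line and carry a FLAG-tagged mouse Sim2 transgene under a tetracycline-regulated promoter, hCMV*-1. All lines were induced for 26 h without tetracycline. FLAG ChIP was done once in each clone and once in EB3, which lacks the transgene and serves as the negative control, while NANOG, OCT4, MED1 and MED12 ChIP each had 1 library, from induced A6 cells. Each line is 1 clone, the transgene drives SIM2 above its natural level, and no NANOG, OCT4, MED1 or MED12 list from cells without SIM2 was analysed here, so the effect of SIM2 on these factors cannot be read from these lists.

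SALL proteins are multi-zinc-finger transcription factors that recruit the NuRD co-repressor complex. SALL4 is required in the early embryo and maintains ES cells, where it associates with OCT4 and NANOG. SALL1 is also expressed in ES cells and is needed for kidney development, and its human gene is mutated in Townes-Brocks syndrome, whereas SALL3 acts in the development of the palate and cranial nerves. NANOG and OCT4 (Pou5f1) are core pluripotency transcription factors, and MED1 and MED12 are subunits of Mediator, the coactivator complex that links enhancer-bound factors to RNA polymerase II.

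The DNA under the strongest shared peaks of Sall1 and Sall4 is shown because the peaks of 3 to 5 factors met there. Each is a 200 bp window of the mm9 plus strand around the middle of the peak centres, and all 3 genes are transcribed from the minus strand. Capitals mark every match, on either strand, to the motifs named after the sequences.
Sall1, 40.5 kb downstream of the start, chr8:91527502-91527701: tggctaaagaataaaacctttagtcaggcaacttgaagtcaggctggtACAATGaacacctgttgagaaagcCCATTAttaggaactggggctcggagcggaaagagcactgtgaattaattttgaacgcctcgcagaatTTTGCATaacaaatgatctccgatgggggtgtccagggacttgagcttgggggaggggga
Sall1, 52.0 kb downstream of the start, chr8:91515924-91516123: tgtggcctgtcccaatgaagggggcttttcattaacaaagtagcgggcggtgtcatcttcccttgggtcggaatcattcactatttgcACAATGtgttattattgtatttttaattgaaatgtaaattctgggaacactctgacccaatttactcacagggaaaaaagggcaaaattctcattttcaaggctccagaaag
Sall4, first intron, chr2:168590166-168590365: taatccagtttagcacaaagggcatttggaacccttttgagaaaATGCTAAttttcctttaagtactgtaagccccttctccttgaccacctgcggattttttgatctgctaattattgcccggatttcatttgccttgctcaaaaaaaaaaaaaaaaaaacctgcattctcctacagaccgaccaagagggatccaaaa
The Sall1 window at 40.5 kb had a GC content of 47.5% with 5 CG dinucleotides, the Sall1 window at 52.0 kb 40.5% with 3, and the Sall4 window 39% with 3.

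Among 6 short motifs, searched on both strands, the 3 windows held 1 match, the NANOG core TAATGG in the Sall1 window at 40.5 kb, read on its minus strand as CCATTA. This core occurred in 9.68% of the 1229 SIM2 sites, in 11.7% of the 14815 NANOG peaks and in 10.2% of the 1319 positions with 3 or more factors, all taken as windows of 200 bp. None of the 3 windows held the octamer ATGCAAAT bound by OCT4, the SOX core ATTGTT, the SIM-ARNT core ACGTG, the E-box CACGTG that contains it, or the KLF core GGGNGTGG. In the same 3 sets the octamer was present in 7.4%, 6.95% and 9.4% of windows. The SOX core was present in 18.1%, 24.1% and 22.1%, and the SIM-ARNT core in 14.1%, 5.41% and 6.97%. The E-box was present in 2.28%, 1.26% and 1.44%, and the KLF core in 12.2%, 8.68% and 9.1%. With such shares, the absence of these motifs from 3 windows is a description only. A pair of looser motifs was added after the sequences had been read and is given as a description only. The octamer-like ATGCNAA, which overlaps the octamer, matched in the Sall1 window at 40.5 kb and in the Sall4 window, and occurred in 28.2%, 24.1% and 31.1% of the 3 sets. The SOX-like CATTGT matched in both Sall1 windows, and occurred in 19.9%, 21.7% and 23.2%.

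Peaks of FLAG, NANOG, OCT4, MED1 and MED12 were counted as 1 position when neighbouring centres were at most 100 bp apart, chained from peak to peak. A FLAG peak of any clone counted as SIM2, whereas the other factors were mapped in A6 only. The 3 loci held 16 of the 17177 positions, 8 at Sall1, 4 at Sall3 and 4 at Sall4. At 8 of the 16 only NANOG was present, and 18 of the 32 peaks gathered at the 4 positions with 3 or more factors. Such positions made up 7.68% of all positions, and those with all 5 factors made up 0.774%. The share of NANOG alone among all positions was not computed, nor was the share of all peaks at positions with 3 or more factors. The counts of 8 and 18 therefore only describe these loci. The map of the 3 loci shows the arrangement, with the shared positions past the 3′ end of Sall1 but inside the first intron of Sall3 and Sall4.

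**Figure D1:**
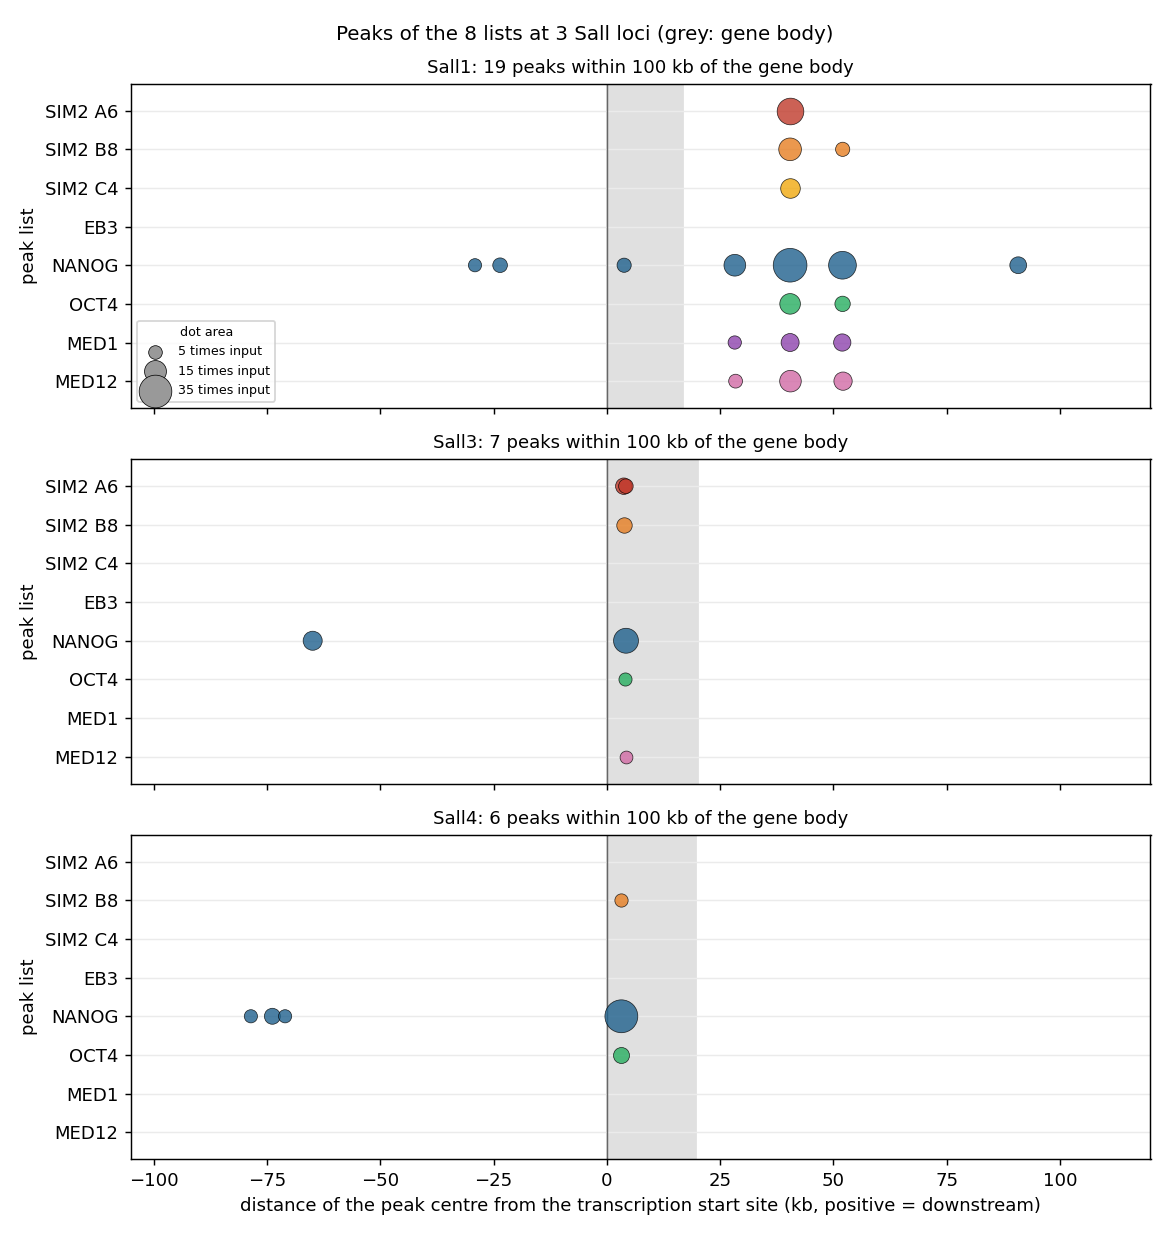
Peaks of the 8 lists (rows) by the distance of their centre from the transcription start site in kb (x axis, positive is downstream), 1 panel per gene. Dot area grows linearly with the fold over the input, the grey band is the gene body, and no dot appears in the EB3 row. The 19 Sall1 peaks include 2 columns with all 5 factors past the 3′ end, whereas the columns of Sall3 and Sall4 stand inside the gene.

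The strength of a peak was read in 3 deposited measures. The normalized tag count is a tag signal scaled to library size. The total tags are those given for the peak, and the fold is their ratio to the tags of the input DNA. The normalized tag count and the total tags were not proportional within a list. For NANOG a normalized tag count of 17 went with 43 total tags at Sall3 and 54 at Sall1. In A6 and OCT4 the total tags were not whole numbers, so they are not plain counts there. At 30 of the 32 peaks the input value was the lowest one in that list, a value shared by 77.8% to 93.9% of the peaks of each list, so that the fold there follows the total tags. Peaks were ranked within their own list by normalized tag count, rank 1 being the highest. Intervals in parentheses are exact 95% Poisson intervals of the total tags. They cover counting error only and were computed for the 5 lists (B8, C4, NANOG, MED1 and MED12) whose total tags are whole numbers. Depth, recovered from the equal steps of the normalized tag count under a scaling to 10 M (megatag) per library, lay between 12.9 and 31.5 M, and the lists differed in length from 81 peaks in EB3 to 14815 for NANOG. No comparison between genes was given a p-value, since peaks of 1 library at 1 locus are not replicates.

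No EB3 peak lay within 100 kb of any of the 4 Sall genes, as for most genes, since 1.14% of protein-coding genes had one. The nearest EB3 peaks were 4.08 Mb from Sall1, 1.4 Mb from Sall3 and 10.83 Mb from Sall4. SIM2 binding sites, defined as FLAG peaks in at least 2 clones with no EB3 peak within 100 bp, numbered 1229 genome-wide, of which 346 were in all 3 clones. Sall1 had 1 such site, found in all 3 clones, Sall3 had 1, found in A6 and B8, and Sall4 had none. For comparison, 13.4% of protein-coding genes had at least 1 SIM2 site in the same window. A FLAG peak in any single clone occurred near all 3 members and near 28.7% of protein-coding genes.

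Sall1 (ENSMUSG00000031665.6, chromosome 8, 91551147 to 91568061) held the strongest position of the family. It lay 40.5 kb downstream of the transcription start, past the 3′ end of the gene and outside every annotated gene, with the next protein-coding start, that of Gm5356, 183.8 kb away. All 3 clones and all 4 other factors had a peak there. In A6 the SIM2 peak had a normalized tag count of 34.8 and 22.9-fold enrichment over the input, and ranked 5 of 2387. In B8 it had 38 tags (26.9 to 52.2) and 16.2-fold enrichment, and ranked 4 of 2137. In C4, the shortest of the SIM2 lists, it had 26 tags (17.0 to 38.1) and 11.8-fold enrichment, and ranked 11 of 631. SIM2 was thus near the top of each clone's list. The mean enrichment over the clones was 16.9-fold ± 5.59 (SD, n = 3), against list medians of 7.15 for A6, 5.53 for B8 and 5.43 for C4. The normalized tag count of A6 was not set against those of B8 and C4. Converted to tags at the recovered depth, it had a median ratio to the caller score of 0.97 in A6. In B8 and C4 the median ratio was 0.502 and 0.499, for a reason the lists do not state. The contrast thus rests on the recovered depths. The ratio was also 0.502 to 0.504 in NANOG, OCT4, MED1 and MED12, so normalized tag counts are compared only within a list, and whether the recovered depths are affected was not tested.

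NANOG, OCT4 and MED12 were also near the top of their lists at the same position. NANOG had 81 tags (64.3 to 100.7), a normalized tag count of 34.1 and 37.3-fold enrichment, and ranked 80 of 14815, within the top 0.54% of its list. OCT4 had a normalized tag count of 13.9 and 13.2-fold enrichment and ranked 17 of 2532. MED12 had 58 tags (44.0 to 75.0) and a normalized tag count of 29.3 and ranked 3 of 1071. MED1, the other Mediator subunit, stood lower in its list, with 45 tags (32.8 to 60.2), a normalized tag count of 16.5 and rank 31 of 762. The centres of the 3 SIM2 peaks and of NANOG, OCT4 and MED1 fell within 9 bp of each other, and those of NANOG and OCT4 coincided. The MED12 centre lay 77 to 86 bp further from the gene than the other 6.

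A second position with all 5 factors lay at Sall1, 52.0 kb downstream of the start, and all 5 factors ranked lower there than at the first. The FLAG peak came from B8, whereas the other factors were mapped in A6, which had no FLAG peak there. SIM2 was found there in B8 alone, with 13 tags (6.9 to 22.2) and 5.53-fold enrichment, equal to the median of that list, and rank 597 of 2137. NANOG remained high, with 54 tags (40.6 to 70.5), 24.9-fold enrichment and rank 1009 of 14815. MED1 had 30 tags (20.2 to 42.8) and rank 72 of 762, MED12 33 tags (22.7 to 46.3) and rank 63 of 1071, and OCT4 a normalized tag count of 6.7 and rank 613 of 2532. Every factor had a lower normalized tag count than at 40.5 kb. The tag intervals of the 2 positions did not overlap for SIM2 in B8, overlapped at their ends for NANOG, MED1 and MED12, and could not be given for OCT4, whose normalized tag count was 13.9 at 40.5 kb. The peaks were spread over 172 bp, the distance between the MED12 and MED1 centres, and MED12 lay 127 bp from NANOG, so that MED12 was joined to the rest only through the B8 peak, 84 bp from MED12 and 43 bp from NANOG.

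Mediator without SIM2 was found nearer to Sall1. At 28.2 kb downstream of the start, NANOG (32 tags, 21.9 to 45.2, 14.8-fold, rank 4147) and MED1 (16 tags, 9.1 to 26.0, 4.71-fold, rank 229) had centres 19 bp apart. The NANOG peak stood higher by the other measures, at rank 1879 of 14815 by caller score and 1882 by fold. A MED12 peak with 17 tags (9.9 to 27.2) and rank 312 lay 170 bp from this NANOG peak and was therefore a position of its own. The remaining 4 NANOG peaks of Sall1 stood alone, in the second intron 3813 bp from the start, 23567 and 29108 bp upstream of it, and 90803 bp downstream. Their enrichment was between 4.61-fold and 8.3-fold, and their ranks were 6777 to 9986 of 14815.

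**Figure D2:**
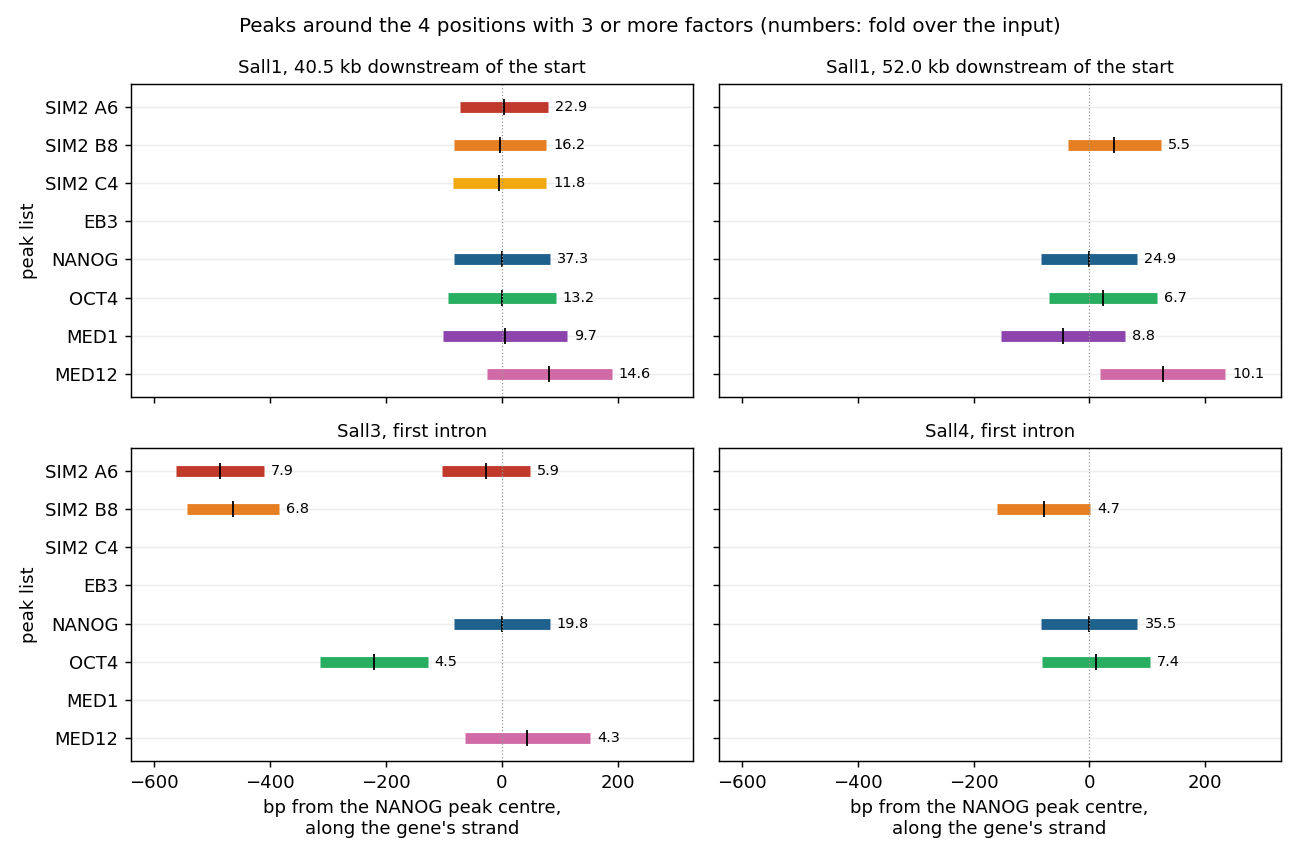
Peaks around the 4 positions with 3 or more factors. Each bar is a peak drawn to its deposited width, the tick is its centre, the x axis is the distance in bp from the NANOG centre along the strand of the gene, and the number is the fold over the input. At Sall1 the 3 SIM2 clones, NANOG, OCT4 and MED1 are stacked at 40.5 kb, whereas at Sall3 the stronger A6 peak lies 486 bp from NANOG.

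Sall3 (ENSMUSG00000024565.8, chromosome 18, 81163115 to 81183317) had the second SIM2 site, in its first intron. The site was centred 3751 bp from the transcription start. It had 7.9-fold enrichment and rank 909 of 2387 in A6, and 16 tags (9.1 to 26.0), 6.81-fold enrichment and rank 597 of 2137 in B8. The mean over these clones was 7.36-fold ± 0.771 (SD, n = 2), beside list medians of 7.15 and 5.53, and C4 had no peak at Sall3. Neither NANOG, OCT4 nor Mediator lay within 100 bp of this site. The OCT4 peak of the intron was 243 bp from the SIM2 peak of B8, and was among the weaker ones of its list, with 4.55-fold enrichment and rank 2124 of 2532.

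A separate position lay in the same intron of Sall3, 4.2 kb from the start, where SIM2 met NANOG and MED12. NANOG was its strongest peak, with 43 tags (31.1 to 57.9), 19.8-fold enrichment and rank 1009 of 14815. It tied with the second Sall1 position in normalized tag count, at 17, but had fewer tags, 43 against 54, and ranked 907 against 455 by fold. MED12 had 14 tags (7.7 to 23.5) and 4.27-fold enrichment, near the lowest of its list at 4.01, and rank 513 of 1071. SIM2 was seen there in A6 only, with 5.93-fold enrichment and rank 1938 of 2387, 458 bp from the other A6 peak. Thus within 530 bp of the intron 3 positions stood side by side, of which the one found in several clones carried no other factor. The only other peak of Sall3 was of NANOG, 64935 bp upstream, with 24 tags (15.4 to 35.7) and rank 3092.

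Sall4 (ENSMUSG00000027547.11, chromosome 2, 168573832 to 168593443) carried a NANOG peak as strong as that of Sall1. It lay in the first intron, 3199 bp from the start, with 77 tags (60.8 to 96.2), a normalized tag count of 34.8 and 35.5-fold enrichment, and ranked 71 of 14815, within the top 0.479%. Its tag interval overlapped widely with that of the strongest Sall1 peak. OCT4 was centred 12 bp away, with a normalized tag count of 7.9, 7.42-fold enrichment and rank 339 of 2532. SIM2 was weak there, and its peak came from another clone than NANOG and OCT4, which were mapped in A6. B8 was the only clone with a peak, 79 bp from NANOG, with 11 tags (5.5 to 19.7) and 4.68-fold enrichment at rank 1704 of 2137, and 11 is also the lowest score in tags among the peaks of that list. No MED1 or MED12 peak was listed within 100 kb of Sall4. The other 3 NANOG peaks formed a group 71.0 to 78.6 kb upstream, with 10 to 16 tags and enrichment of 4.61-fold to 7.38-fold.

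The 3 paralogs each had a NANOG peak in an intron within 5 kb of the start, the second intron in Sall1 and the first in Sall3 and Sall4. NANOG was present 3813 bp from the start of Sall1, 4226 bp from that of Sall3 and 3199 bp from that of Sall4, whereas the single NANOG peak of Sall2 (6.2 normalized tags, rank 6777) lay 3571 bp upstream. Of all protein-coding genes, 3.36% had a NANOG peak centred within 5 kb downstream of the start, a window that was chosen after the peaks had been seen. That share was not limited to introns, nor to the gene body where a gene is shorter than 5 kb. The intronic NANOG peaks differed in strength, from 12 tags (6.2 to 21.0) at Sall1 through 43 at Sall3 to 77 at Sall4. The Sall1 interval did not overlap the other two, nor did those of Sall3 and Sall4 overlap. No peak of any list fell in the promoters, taken as 1 kb upstream to 300 bp downstream of the start. The share of all protein-coding genes with a promoter peak was not reported, so this absence is not given as a trait of the Sall genes.

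In number of NANOG peaks the order was Sall1 with 7, Sall4 with 4, Sall3 with 2 and Sall2 with 1, or 3.23, 1.82, 0.91 and 0.46 per 100 kb of window. Sall4 and Sall3 changed places at 8 times the input, with 1 and 2 peaks, and had 1 each in a 50 kb window. A NANOG peak within 100 kb is common, at 67.7% of protein-coding genes, but 2.74% had as many as Sall1 or more. OCT4 peaks numbered 2 at Sall1 and 1 each at Sall3 and Sall4, and 21.8% of genes had at least 1. MED1 was found at Sall1 only among the family, with 3 peaks, where 7.99% of genes had at least 1. MED12 had 3 peaks at Sall1 and 1 at Sall3, where 10.9% of genes had at least 1 and 0.622% had 3 or more. The windows are of nearly equal length, 216.9 to 220.2 kb, so the counts are given without correction for gene length.

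**Figure D3:**
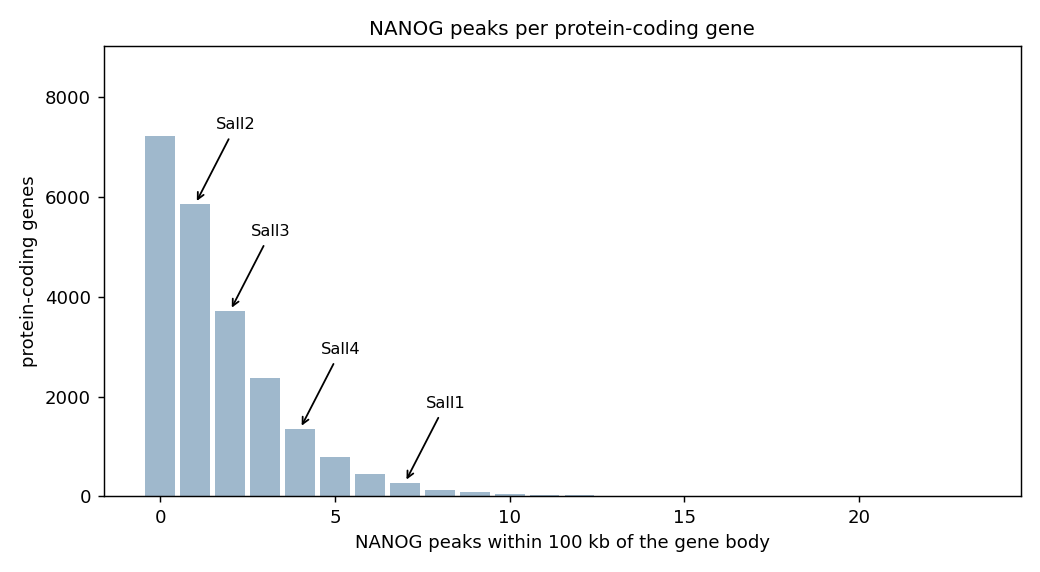
Number of protein-coding genes (y axis) by the number of NANOG peaks within 100 kb of the gene body (x axis), with the Sall genes marked. Sall1, with 7 peaks, stands in the tail that holds 2.74% of genes, and Sall2, with 1, in the second most frequent class.

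The sharing of NANOG peaks was examined for each locus, with NANOG peaks genome-wide as background. SIM2 of any clone lay within 100 bp of 2 of the 7 NANOG peaks of Sall1, 1 of the 2 of Sall3 and 1 of the 4 of Sall4, compared with 13.4% of all NANOG peaks. For OCT4 the numbers were 2, 0 and 1, against 15.1%. MED1 lay beside 3 of the 7 NANOG peaks of Sall1 and beside none at Sall3 and Sall4, against 1.96%, and MED12 beside 1 at Sall1, 1 at Sall3 and none at Sall4, against 5.08%. These are counts of few peaks, and the NANOG peaks of 1 locus share a library and a neighbourhood, so they are a description.

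All 3 members had at least 1 position with 3 or more factors, as did 12.9% of protein-coding genes, and Sall2 had none. Positions with all 5 factors were found near 1.79% of genes. Sall1 had 2 of them and was 1 of 49 genes (0.219%) with 2 or more. The second rests on the B8 peak, and Sall1 kept 1 such position without B8, with SIM2 required in 2 clones or at 8 times the input, and 0 with merging at 50 bp, since MED12 lay 77 bp or more from the other centres. The 49 genes shared only 14 different sets of positions, since neighbouring genes count the same peaks. Sall1 has no other protein-coding gene within 100 kb. Sall3 and Sall4 have 1 each, Atp9b and Atp9a, whose starts were 48.8 kb and 22.3 kb from the intronic SIM2 site of Sall3 and NANOG peak of Sall4. A peak near a gene was not shown to act on it.

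**Figure D4:**
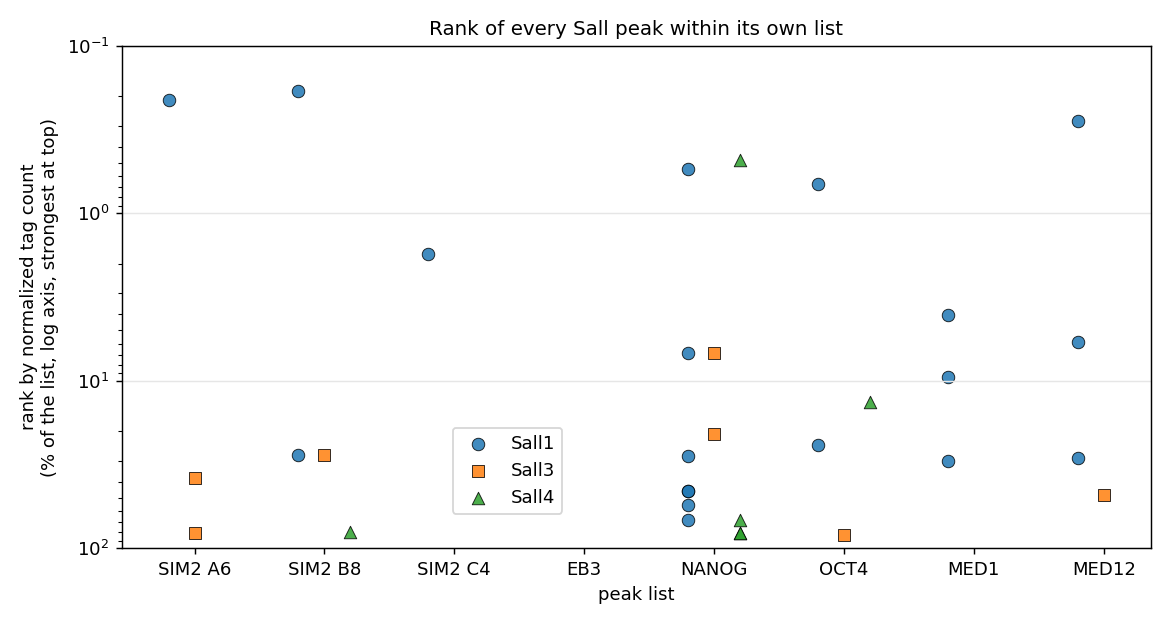
Rank of each of the 32 peaks within its own list, as a percent of the list length on a log axis with the strongest peaks at the top. Circles are Sall1, squares Sall3 and triangles Sall4. The 6 peaks within the top 1% are those of A6, B8, NANOG, OCT4 and MED12 at Sall1 and that of NANOG at Sall4.

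By the counts in the 8 lists, the genes most like Sall1 were B3gnt7, Gm5258 and Ncl, at a Euclidean distance of 0.717 on log2(count + 1). These are neighbours on chromosome 1 that share 1 set of peaks, with 2 in A6, 2 in B8, 1 in C4, none in EB3, 5 of NANOG, 2 of OCT4, 3 of MED1 and 3 of MED12. No gene had counts identical to those of Sall1. For Sall3, 4 genes lay at or within the third smallest distance, 2 of them with identical counts, and for Sall4, 14 genes had identical counts. By presence or absence alone, 294 genes matched Sall1, 337 Sall3 and 208 Sall4.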

How the data were processed

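Only the peak lists were used. Per the study's methods, the authors aligned reads to mm9 with BWA, dropped duplicates and ran HOMER on each library against its input at default settings. Versions are not given in the sources used here. The normalized tag count that the authors deposited is a signal relative to library depth. The focus ratio, deposited by the authors as a fraction, was not needed for any result, and the caller score and the total tags (whole numbers in 5 lists) are the authors' own. The deposited fold over the input is a ratio that the authors' HOMER run gave with a p-value.

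From these, peaks were assigned to GENCODE vM1 genes, ranked within each list (ties take the lowest rank) and merged by single linkage at 100 bp. Sequences came from the NCBIM37 genome, which is mm9. The named peaks were every SIM2 peak, every position with 2 or more factors and the highest peak of each list at each locus, other peaks being given as counts and ranges. Similar genes excluded those within 1 Mb of the member and were named only when at most 3 tied. No test was run. The members and lists were chosen with earlier results of these data known. The tools were bedtools 2.31.1 and Python 3.11.15 with matplotlib 3.10.9, scipy 1.17.1, pandas 2.3.3 and numpy 2.4.6. On simulated data all 624 planted sites and 537 positions were recovered, and 300 of 300 gene windows gave the counts of bedtools. Planted centres lay well within the merging distance of each other, so gaps near 100 bp and chaining were not tried. The alternatives were the window (50 and 200 kb), at least 8 times the input, the merging distance, the number of clones, the EB3 filter, the rank measure and leaving out each clone.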

Additional observations from a re-analysis of the deposited data

How the results depend on the processing

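Of the counts per locus, 53 alternative values stayed within 1.5 times the reported one and 25 did not. Some of these outcomes were fixed by the definition of a site or position, as given below. The SIM2 site of Sall1 was found under every alternative run, including all 3 clones. Since it was in all 3 clones, leaving out 1 clone could not remove it. Counting FLAG peaks of at least 1 clone gave 2 sites at Sall1, 2 at Sall3 and 1 at Sall4. The Sall3 site was lost, leaving 0, at 8 times the input, when all 3 clones were required, and without A6 or without B8 (range 0 to 1 over the clones left out). The losses by clone were fixed in advance, since the site was in A6 and B8 only. NANOG peaks at 8 times the input numbered 4 at Sall1, 2 at Sall3 and 1 at Sall4. In a 50 kb window they numbered 1 at Sall3 and 1 at Sall4, and in a 200 kb window 7 at Sall4. Positions with 3 or more factors fell to 1 at Sall1, 0 at Sall3 and 0 at Sall4 at 8 times the input, and rose to 2 at Sall4 in a 200 kb window. The Sall4 position was lost (0) with merging at 50 bp. The positions of Sall3 and Sall4 were both lost (0) when SIM2 had to be in 2 clones, that of Sall3 also without A6 and that of Sall4 also without B8 (range 0 to 1 in each). These losses were also fixed, since each position had 3 factors, with SIM2 from 1 clone. The 2 positions with all 5 factors at Sall1, an alternative set chosen after the data were seen, became 1 at 8 times the input, 1 with SIM2 in 2 clones and 0 with merging at 50 bp (range 1 to 2 over the clones left out, 1 without B8). Of 15 highest-peak ranks, 10 stayed within 1.5 times by caller score and 10 by fold. At Sall1, MED12 moved from rank 3 to 11 by score and 16 by fold, B8 from 4 to 11 and 8, and C4 from 11 to 20 and 17, while A6 moved from 5 to 3 by fold. MED12 at Sall3 moved from 513 to 963 and 827, and NANOG at Sall4 from 71 to 115 by score. No paired analysis was possible because no result comes from a test. Single libraries for NANOG, OCT4, MED1 and MED12 leave their error unmeasured, and an absent peak in the shorter MED1 or C4 list is not absent binding.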

Other observations

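Beyond 100 kb, in surroundings of 300 kb that were examined after the data had been seen, Sall4 had the further peak with the highest rank in its list, of OCT4. At 191.6 kb upstream of its start, OCT4 (normalized tag count 13.3, 12.31-fold over the input, rank 23 of 2532), MED1 (5.7, 4.12-fold, rank 305 of 762), NANOG (10.1, 11.06-fold, rank 3092) and MED12 (4.7, 5.19-fold, rank 790 of 1071) lay together without SIM2. This was the Mediator signal nearest to Sall4, but the start of Zfp64, another zinc-finger gene, was only 4.0 kb away. An A6 peak without other factors lay inside Zfp64, 145.5 kb upstream of Sall4 (12.4, rank 825 of 2387).

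Sall3 had a further SIM2 site in 2 clones 265.5 kb upstream of its start. A6 had a normalized tag count of 12.4 and 8.19-fold enrichment there, B8 3.4 and 5.53-fold, and NANOG 3.9 and 8.3-fold. At Sall1, SIM2 of B8 (4.1), NANOG (17.8, rank 887) and OCT4 (3.8) lay together 227.7 kb upstream of the start, and 84.3 kb from that of Gm5356.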
